A study of Mus musculus with 16 samples.

Results

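The stretch described here is positions 1131 to 2100 of mouse 28S rRNA, which are 970 of the 4731 positions of 28S rRNA and of the 6878 positions of all rRNA in the files. It was set as a range that keeps every position in it, with earlier results of these data known. Each value is a count of read starts at 1 nucleotide in Ψ-seq libraries, and all 970 positions had at least 1 read start in each of the 16 libraries. Positions are counted from 1 in the coordinates of the authors' rRNA sequences. A stop is the first nucleotide of the reads, and the modified nucleotide is the one just upstream of it.

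CD4 T cells were isolated from lymph nodes of female mice and activated for 20 h on plates coated with anti-CD3 and anti-CD28. The labels name an isolation kit for naive CD4 T cells, and the study's methods one for CD4 T cells in general. Control mice were Rnmt fl/fl without Cd4-Cre, and Rnmt cKO mice were Rnmt fl/fl with Cd4-Cre, which deletes the gene in the T cell lineage. Both genotypes thus carry the floxed allele, and the controls lack Cre. From each of 4 control and 4 Rnmt cKO animals, 300 ng of total RNA was treated with 0.17 M CMC and the same amount was mock treated, which gave 16 libraries. Rnmt encodes the methyltransferase that completes the cap of mRNA. Its own level could not be checked here, since the files hold rRNA only.

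Pseudouridine is an isomer of uridine in which the base is joined to the sugar through a carbon atom. In rRNA it is made by the dyskerin complex, and box H/ACA snoRNAs pair with the rRNA to choose each uridine. CMC leaves a stable adduct on pseudouridine, and reverse transcriptase halts 1 nucleotide before it, so that a stop seen in CMC treated and not in mock treated RNA marks a candidate site. Stops in mock treated RNA arise where the template itself blocks the enzyme or where the RNA is broken. A methyl group on the pairing face of a base, as in N1-methyladenosine, is a well known block of the first kind.

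Read starts in the stretch ranged from 128424 to 241010 per library and made up 18.9 to 20.4% of those on 28S rRNA. With CMC this share was 19.8 ± 0.466% for control and 19.6 ± 0.365% for Rnmt cKO, and after mock treatment 19.7 ± 0.645% and 19.9 ± 0.422% (SD, n = 4 each), so it differed between genotypes by less than the spread between animals. The median position had 94 to 184 read starts. Coverage was replaced by the read starts in the 65 nucleotides that end at the position, and this window held 2952 to 27655 read starts, with library medians from 7928 to 15375.5. Mock library 1 of both genotypes stood apart at a group of stops described further down, and results that rest on it are given with and without it.

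The % termination is the read starts at a nucleotide over that window, as a percentage, and the PSU score divides it in an animal's CMC library by that in its mock library. To be called in a genotype, a site needed a mean CMC termination of at least 3% and a mean PSU score of at least 3. By this rule 7 sites were called, at nucleotides 1396, 1491, 1497, 1547, 1595, 1663 and 1665, all 7 in both control and Rnmt cKO. With 1 animal left out all 7 were still called in at least 1 genotype, but nucleotide 1547 was no longer called in control without control 2, 3 or 4, with mean scores of 2.82, 2.96 and 2.99. Nucleotide 1595 was no longer called in Rnmt cKO without Rnmt cKO 1, with 2.88, nor with windows of 50, 40 or 30 nucleotides. The 7 make up 0.722% of the 970 positions, against 1.02% of all rRNA positions called. The 7 stops lie between positions 1397 and 1666, a span of 270 nucleotides, with gaps of 2 to 95 nucleotides. None lay in the 266 positions before it or in the 434 positions after it, where the median window held 13726.5 and 12712 read starts against 11979.5 within the span.

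**Figure D1:**
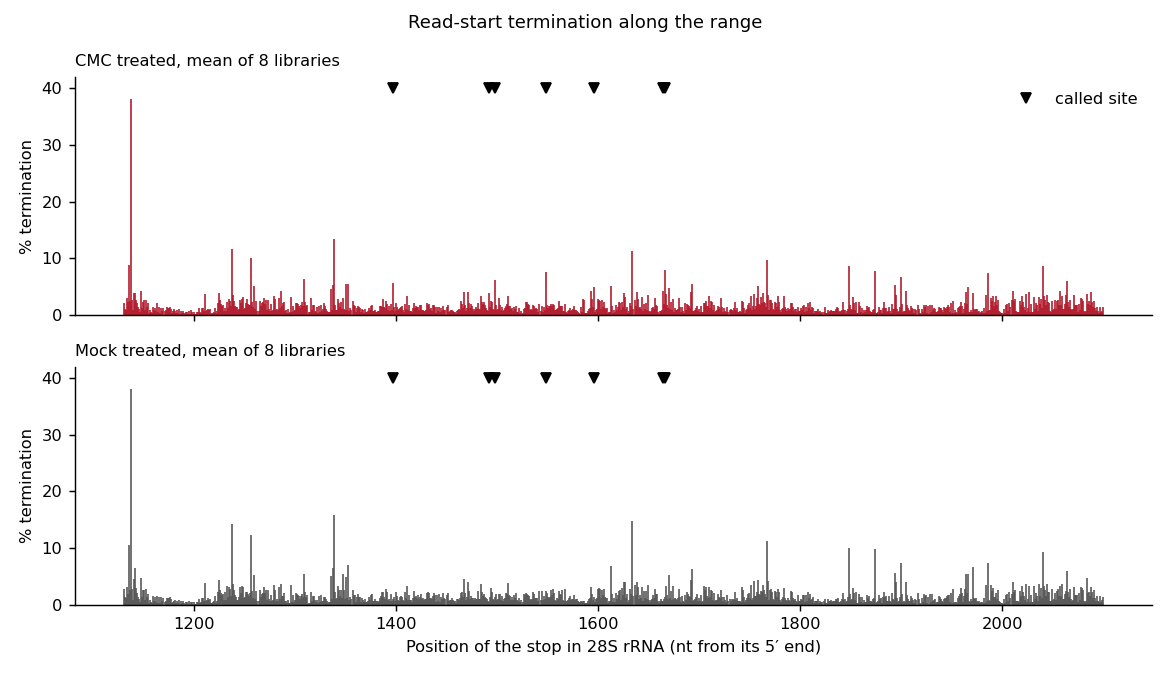
Mean % termination (y axis) at each of the 970 positions (x axis, position in 28S rRNA) in the 8 CMC treated libraries (top) and the 8 mock treated libraries (bottom); triangles mark the 7 called sites. The tallest stop, at 1138, is alike in both panels, while the 7 called stops reach 3.93 to 7.91% with CMC and 0.437 to 2.40% in mock.

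The site at nucleotide 1491 had the highest PSU score of the 7 called sites in 8 of 8 animals. CMC termination at its stop, 1492, was 4.00, 3.72, 4.15 and 4.03% in control 1 to 4 and 4.57, 3.69, 3.87 and 3.41% in Rnmt cKO 1 to 4. After mock treatment the values were 0.347, 0.459, 0.343 and 0.420% in control and 0.486, 0.491, 0.526 and 0.425% in Rnmt cKO. The CMC and mock values did not overlap in either genotype, and the high score came with the lowest mock termination of the 7 sites. The log2 CMC effect, fitted over the 8 animals with the animal as a block, was 3.18 ± 0.094 (SE, edgeR, adjusted p = 9.21e-10).

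A second stop lay 6 nucleotides on, at 1498, for nucleotide 1497. Its CMC termination was 6.56, 6.48, 7.37 and 6.51% in control and 6.34, 5.84, 5.73 and 5.34% in Rnmt cKO. The mock values were 1.28, 1.18, 1.44 and 1.41% and 1.47, 1.13, 1.28 and 1.42%. Mock termination overlapped between the genotypes, and all 4 Rnmt cKO CMC libraries lay below all 4 controls. That difference between genotypes was -0.21 ± 0.091 on the log2 scale and did not pass the test (edgeR, adjusted p = 0.303).

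The pair of stops at 1664 and 1666 stood on either side of a weaker one. At 1666, for nucleotide 1665, CMC termination was 8.43, 7.03, 7.77 and 8.00% in control and 8.65, 8.07, 8.03 and 7.35% in Rnmt cKO. Its mean was the highest of the called sites in both genotypes. The mock values were 2.26, 1.13, 1.04 and 1.14% and 1.28, 1.24, 1.12 and 1.13%, with control 1 well above the other 7 libraries. At 1664, for nucleotide 1663, the CMC values were 3.95, 3.64, 4.34 and 3.73% and 4.93, 4.60, 4.56 and 4.10%, and the mock values 0.719, 0.825, 0.768 and 0.703% and 0.717, 0.723, 0.621 and 0.698%. The stop between them, at 1665, rose with CMC by 1.04 ± 0.082 (log2, SE, edgeR, adjusted p = 2.99e-06) from a mean of 0.972% in mock to 2.00%, and was not called. The log2 CMC effects at 1664 and 1666 were 2.54 ± 0.085 and 2.65 ± 0.114. The next position, 1667, had 3.26% in mock and 3.74% with CMC and did not pass the test (edgeR, adjusted p = 0.0749).

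The site at nucleotide 1396 stood alone at the 5′ end of the span. CMC termination at its stop, 1397, was 5.97, 4.73, 5.30 and 5.59% in control and 6.13, 6.64, 5.46 and 4.97% in Rnmt cKO. In mock treated RNA it was 0.635, 1.04, 0.862 and 1.04% and 0.857, 1.11, 1.24 and 1.25%. Both animals numbered 1 had the lowest mock value of their genotype there. Its log2 CMC effect was 2.50 ± 0.135.

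Nucleotide 1547 combined the second highest CMC termination of the called sites with the highest mock termination. At its stop, 1548, the CMC values were 7.80, 7.77, 7.59 and 7.45% in control and 8.69, 7.54, 7.38 and 6.89% in Rnmt cKO. In mock libraries they were 4.12, 2.07, 2.28 and 2.31% and 2.40, 1.81, 1.94 and 2.26%, with control 1 high again. The log2 CMC effect of 1.71 ± 0.118 was the smallest of the 7, and in control the mean PSU score of 3.05 was just above the threshold.

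Nucleotide 1595 lay at the 3′ end of a run of 4 neighbouring stops that all rose with CMC. At its stop, 1596, CMC termination was 4.99, 4.63, 5.44 and 4.78% in control and 5.49, 5.49, 5.04 and 4.35% in Rnmt cKO. Without CMC the values were 1.03, 1.33, 1.16 and 1.24% and 1.47, 1.63, 1.83 and 1.73%, with no overlap between genotypes. The log2 CMC effect was 1.84 ± 0.108 at 1596 and fell off through 0.67 at 1595, 0.48 at 1594 and 0.41 at 1593, while 1597, on the other side, stayed under 1% with 0.506% in mock and 0.559% with CMC.

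**Figure D2:**
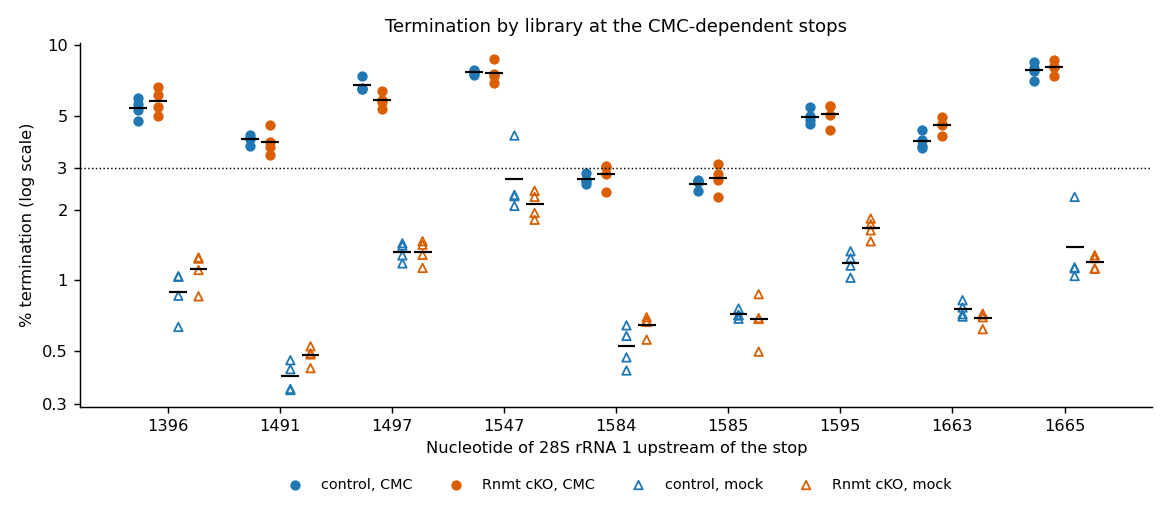
% termination on a log axis (y axis) at the 9 stops with the largest CMC effect, named on the x axis by the nucleotide upstream; filled circles are CMC and open triangles mock libraries, control in blue and Rnmt cKO in orange, bars are means of 4 and the dotted line is the 3% threshold. CMC and mock libraries are separate at all 9 stops, and the stops of nucleotides 1584 and 1585 lie around the line.

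Just under the threshold lay a doublet at stops 1585 and 1586, for nucleotides 1584 and 1585. For control and Rnmt cKO, mean CMC termination came to 2.68% and 2.83% at 1585, and to 2.58% and 2.72% at 1586. In mock libraries it was 0.415 to 0.645% and 0.561 to 0.698% at 1585, and 0.688 to 0.760% and 0.499 to 0.875% at 1586. The log2 CMC effects, 2.22 ± 0.103 and 1.89 ± 0.099, were above those of 2 called sites, and the highest mean PSU scores of a genotype were 5.25 and 4.17. Just inside the 3% threshold were the stops 1492 and 1664, with 3.97% and 4.55%. Just inside the score threshold were 1548 and 1596, with scores of 3.66 and 4.22 in the genotype with the higher mean and of 3.05 and 3.09 in the other. Among stops over 3% in either genotype, the next highest scores of a genotype were 1.75 at 1994 and 1.57 at 1253. At 1253 the 1.57 was that of control, where CMC termination was 2.81%. Rnmt cKO had 3.02% there, with a score of 1.19. With windows of 50, 40 or 30 nucleotides 9 sites were called.

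Read starts at these 9 stops numbered 172 to 1264 in CMC and 23 to 539 in mock libraries. The exact (Clopper-Pearson) 95% interval of a single library's termination had a width to either side of 5.33 to 15.0% of the value in CMC and of 8.36 to 43.2% in mock libraries. The mock library thus sets the precision of the score. At the stop 1492 in control mock 3, 48 of 14001 read starts gave 0.343% with an interval from 0.253 to 0.454%. Such intervals cover counting error only.

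Over the whole stretch, 587 positions had a mean termination of at least 1% and were tested for the CMC effect. Termination was higher with CMC at 64 of them (10.9%), against 11.5% of the tested positions of all rRNA, and lower at 54 (9.2%), against 10.2%. Both shares were near those of all rRNA. With TMM library sizes in place of the window the split was 66 higher and 33 lower. Leaving out control 1 gave 86 lower positions, and leaving out control 2 or control 4 gave 35. A log2 effect above 1 was found at 10 positions, against 2.21% of all tested positions, and these 10 were the 7 called stops, 1585, 1586 and 1665. Of the other 54 positions that rose, 11 had log2 effects between 0.5 and 1 and 43 had smaller ones, down to 0.19. Outside the span of the called sites the largest were a run of 3 at 1993 to 1995, with log2 effects of 0.66, 0.72 and 0.85, and 1322 with 0.67. At 1994 the mean rose from 2.04% in mock to 3.34% with CMC. The 64 positions fell into 47 runs, with steps of at most 3 nucleotides within a run, of which 36 were single positions. The longest run was the one that ends at 1596.

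**Figure D3:**
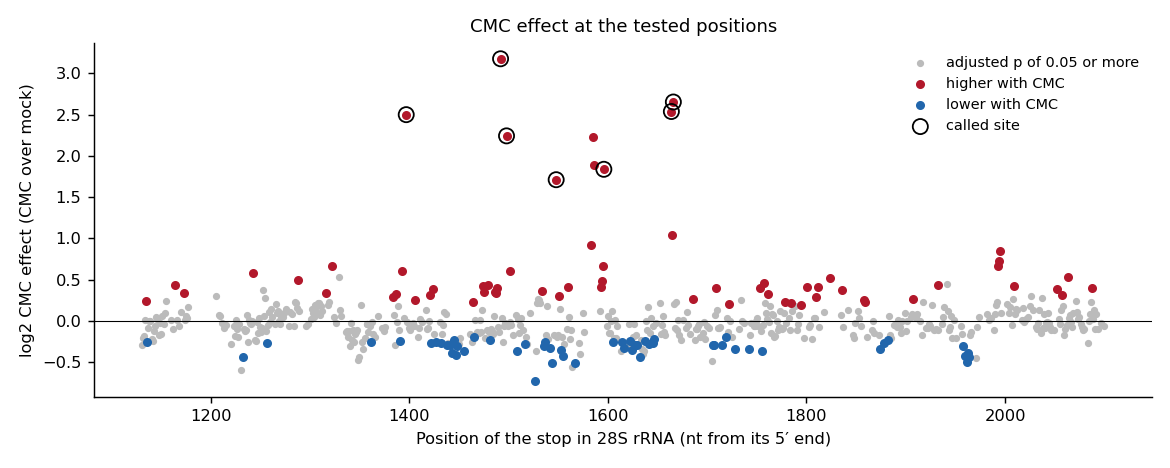
Log2 CMC effect (y axis) at the 587 tested positions (x axis, position in 28S rRNA); red and blue points passed the edgeR test as higher and lower with CMC, grey points did not, and circles mark the 7 called sites. Effects above 1 lie only between 1397 and 1666, and 37 of the 54 blue points lie within the 64 nucleotides after 1 of the 9 strongest stops.

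Positions that fell with CMC lay mostly behind the strong stops. Of 189 tested positions whose window holds 1 of the 9 strongest CMC stops, 37 were lower with CMC (19.6%), against 17 of the other 398 (4.27%). CMC adds read starts at those stops and thus to the window of every position in the next 64 nucleotides. The part of this in the lower positions was not tested. With TMM library sizes, which use no window, the shares were 7.41% and 4.77%, and the median log2 effect of the 189 positions moved from -0.10 to -0.05. The lowest effects were -0.72 at 1527, -0.51 at 1544 and -0.51 at 1567. The log2 effects of the 9 stops themselves ran from 1.71 to 3.18 with the window and from 1.85 to 3.08 with TMM library sizes.

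PSU scores were then compared between genotypes, the question the study put to its pseudouridine data. None of the 7 sites passed the test, nor any of the 70 sites of all rRNA (0%, limma, lowest adjusted p = 0.599 among the 7), and 2 of the 7 had an unadjusted p under 0.05, against 4 of the 70. No other tool was run on the scores. At nucleotide 1663 the score was 5.49, 4.41, 5.65 and 5.30 in control and 6.88, 6.36, 7.34 and 5.87 in Rnmt cKO. All 4 Rnmt cKO animals lay above all 4 controls, and the difference was 1.40 ± 0.552 (SE, limma, adjusted p = 0.599). At nucleotide 1491 the scores were 11.5, 8.11, 12.1 and 9.58 in control and 9.40, 7.51, 7.36 and 8.02 in Rnmt cKO, which overlapped, and the difference was -2.25 ± 0.909 (adjusted p = 0.599). At nucleotide 1595 they were 4.85, 3.48, 4.71 and 3.85 and 3.75, 3.36, 2.75 and 2.51, with a difference of -1.13 ± 0.558.

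The other 4 sites differed by less. At nucleotide 1396 the scores ran from 4.56 to 9.39 in control and from 3.97 to 7.16 in Rnmt cKO, with a difference of -0.99 ± 1.09 that became 0.022 once control 1 was left out. At nucleotide 1665 the control scores were 3.72, 6.24, 7.44 and 7.03 and those of Rnmt cKO 6.76, 6.48, 7.17 and 6.53. The low score of control 1 came with the raised mock termination given above, and the difference of 0.62 ± 0.793 became -0.17 without that animal. Control 1 was also low at nucleotide 1547, with 1.89 against 3.23 to 3.75 in the other controls and 3.05 to 4.17 in Rnmt cKO. The genotypes differed there by 0.61 ± 0.572, or by 0.22 with control 1 left out. At nucleotide 1497 the difference was -0.67 ± 0.516, between scores of 4.63 to 5.49 and 3.77 to 5.16. The median score over the 7 sites was 5.16 ± 0.456 in control and 5.30 ± 1.30 in Rnmt cKO (SD, n = 4).

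**Figure D4:**
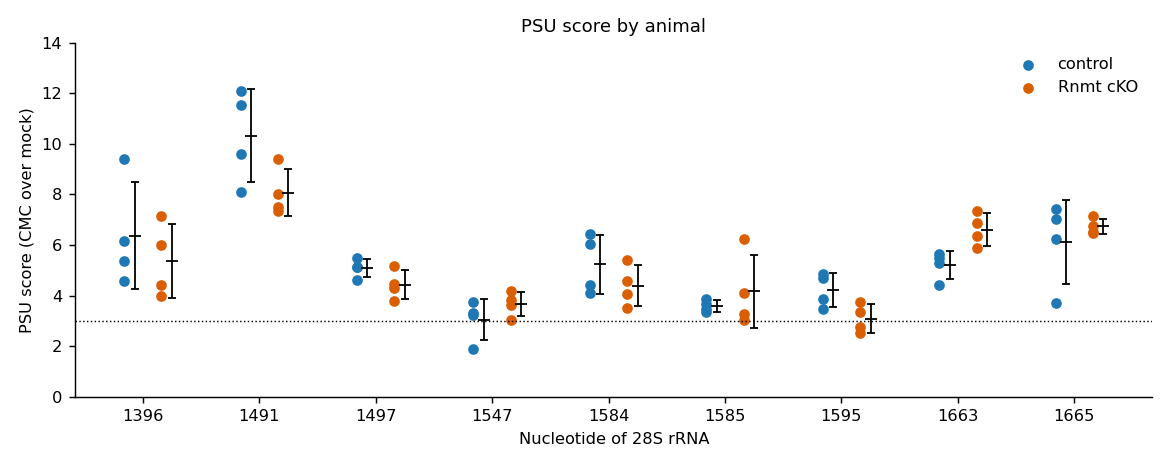
PSU score (y axis) of each animal at the 7 called sites and at nucleotides 1584 and 1585, which were not called (x axis, nucleotide of 28S rRNA), control in blue and Rnmt cKO in orange; black marks are the mean ± SD of 4 animals and the dotted line is the threshold of 3. Nucleotide 1491 is highest in all 8 animals, and only nucleotide 1663 has genotypes that do not overlap.

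Sites at the ends of the order by score changed rank little. Nucleotide 1491 came first in all 8 animals, and nucleotides 1547 and 1595 held ranks 6 to 7 and 5 to 7. In Rnmt cKO 3 the lead was small, with 7.36 at nucleotide 1491 against 7.34 at nucleotide 1663. Mock termination for nucleotide 1491 had an interval from 0.379 to 0.710% in that animal, so its first place there lay within counting error. Nucleotides 1396, 1663 and 1665 shared ranks 2 to 6, and 1497 took ranks 3 to 5, so that these 4 could not be ordered beyond their spread.

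The interaction of genotype and CMC, which asks whether the CMC effect itself differed, passed at 0 of the 587 positions and at 0% of all tested positions (edgeR). An unadjusted p under 0.05 was found at 17 of the 587 (2.90%), against 6.06% over all rRNA, and DESeq2 called 0 of the 587, against 0.273% of all tested positions. The smallest p was at the stop 1928. CMC termination there was 1.74, 1.83, 1.74 and 1.55% in control and 2.00, 1.95, 1.66 and 1.90% in Rnmt cKO, and mock termination 2.55, 2.22, 1.97 and 2.05% and 1.88, 1.96, 1.34 and 1.73%. The CMC libraries overlapped and the mock libraries did not, and the interaction was 0.48 ± 0.135 on the log2 scale (edgeR, adjusted p = 0.785). Stops 1286 and 1710 followed with -0.53 ± 0.174 and -0.37 ± 0.132. At called sites the interaction ran from -0.45 at 1596 to 0.34 at 1664.

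The tallest stop of the stretch, in both treatments, was at 1138, next to nucleotide 1137, which the definition of the stretch gives as a methylated adenine. The base itself was not read here. Termination in the mock libraries was 34.1, 38.5, 37.9 and 35.8% in control and 40.2, 39.8, 40.1 and 38.1% in Rnmt cKO. With CMC it was 41.2, 38.1, 39.8 and 37.8% and 39.3, 38.4, 35.8 and 34.4%. Termination overlapped between the genotypes and between the treatments, and the CMC effect was 0.002 ± 0.068 (log2, SE, edgeR, adjusted p = 0.987). The mock means were 36.6 ± 2.05% in control and 39.5 ± 1.00% in Rnmt cKO, a log2 difference of 0.11 ± 0.088 (adjusted p = 0.669). The PSU score there was near 1, at 1.08 ± 0.094 for control animals and 0.935 ± 0.042 for Rnmt cKO animals (SD, n = 4). Scores ran from 0.989 to 1.21 in control and from 0.894 to 0.979 in Rnmt cKO, with no overlap. The interaction of genotype and CMC was -0.20 ± 0.117 and did not pass the test (edgeR, adjusted p = 0.785).

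The stop at 1136, just upstream of that adenine, was also among the 10 tallest. Its mock values were 8.19, 9.98, 8.72 and 9.90% in control and 10.8, 12.3, 12.9 and 11.6% in Rnmt cKO, and its CMC termination 7.43, 7.14, 8.27 and 8.36% and 9.83, 9.77, 9.98 and 9.52%. Rnmt cKO was higher with no overlap in both treatments. The log2 differences were 0.37 ± 0.122 in mock and 0.32 ± 0.087 in CMC libraries, and neither passed the test (edgeR, adjusted p = 0.653 and 0.150). DESeq2 gave an adjusted p of 0.00965 for the latter.

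Among the 8 mock stops that averaged over 10%, 1339 and 1634 varied most between libraries. Mock termination at 1339 was 36.6, 14.2, 15.6 and 15.5% in control and 21.6, 7.58, 7.33 and 8.78% in Rnmt cKO, and at 1634 it was 22.7, 13.7, 16.7 and 15.6% and 21.9, 8.45, 9.31 and 9.68%. Library 1 was highest in each genotype at both stops, and the other 3 Rnmt cKO libraries lay below the other 3 controls. In CMC libraries 1339 had 18.2, 16.6, 14.8 and 11.2% in control and 13.1, 5.61, 11.5 and 16.4% in Rnmt cKO, which overlapped, with neither CMC library 1 standing far above its group.

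The stop at 1142, 5 nucleotides behind the adenine, showed the same order more sharply. Control mock 1 had 3204 of 13015 read starts there, 24.6% with an interval from 23.9 to 25.4%, and the other controls had 3.90, 4.82 and 4.94%. Rnmt cKO mock libraries had 7.46, 1.68, 1.81 and 2.14%. In CMC libraries it was 6.51, 5.55, 4.41 and 2.70% and 3.34, 1.38, 2.87 and 5.02%.

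In all, mock library 1 was at least 1.5 times the highest of the other 3 libraries of its genotype at 51 of 581 tested positions in control and at 21 in Rnmt cKO, 17 of them shared. Among the other 6 mock libraries only Rnmt cKO 3 did so at any position, at 11. These counts were made in the stretch only, so they do not tell whether it differs from the rest of rRNA. The 17 shared stops included, beside 1142 and 1339, 1971 with 21.3% in control 1 against 3.95 to 4.91%, 1348 with 18.6% against 3.35 to 3.77% and 1613 with 13.0% against 5.96 to 6.43%. None of the 17 was among the positions that rose with CMC, which were 10.9% of those tested in the stretch. High values in 2 mock libraries lower the CMC effect, so no conclusion is drawn from this count. The files give no date or batch for these libraries, and the part of library preparation in this pattern was not tested.

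**Figure D5:**
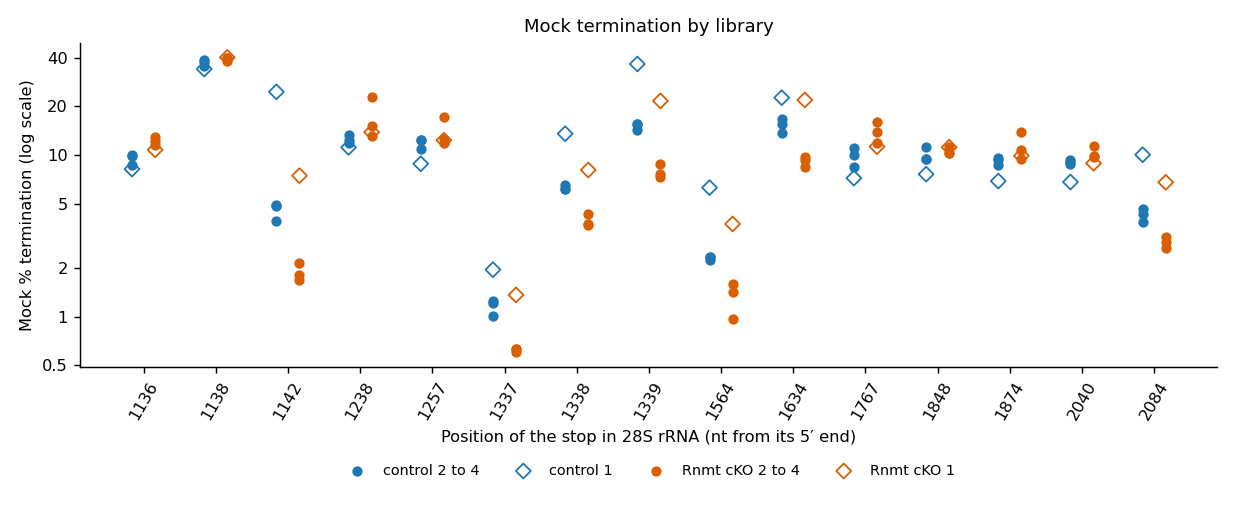
Mock % termination on a log axis (y axis) at the 10 tallest mock stops and at the 6 stops that passed the genotype test with the replicate number as a block, 1 of them in both sets (x axis, position in 28S rRNA); filled circles are libraries 2 to 4 and open diamonds library 1, control in blue and Rnmt cKO in orange. Library 1 lies above the rest of its genotype at 1142, 1337 to 1339, 1564, 1634 and 2084, and in neither genotype at 1136.

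Mock termination by genotype passed the test at 0 of the 581 tested positions, and at 0% of those of all rRNA (edgeR), with 35 of the 581 at an unadjusted p under 0.05 (6.02%, against 6.22% over all rRNA). DESeq2 called 2 of the 581, against 0.226% of all, 1351 and 1768, both higher in Rnmt cKO. Mock libraries of animals that share a number correlated, with r from 0.13 to 0.59 in the stretch. With the number as a replicate block 6 stops passed, all lower in Rnmt cKO, or 1.03% against 1% of all tested positions. They were 1142, 1337, 1338, 1339, 1564 and 2084, with log2 differences of -1.39, -0.80, -0.70, -0.89, -0.78 and -0.57 (edgeR, replicate block, adjusted p from 0.0165 to 0.0456). All 6 were among the 17 stops at which library 1 was high in both genotypes. Without control 1, and with no block, the differences were -0.48 at 1142, -0.34 at 1338, -0.42 at 1339, -0.24 at 1564 and -0.15 at 2084, none of which passed, and 1337 was not among the positions tested. Rnmt cKO 1, which was also high at these stops, stayed in that fit. The fit therefore cannot tell whether the differences rest on control 1.

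With both animals numbered 1 left out, an alternative chosen after these values were seen, 18 mock stops passed without a block. Of these 12 were lower in Rnmt cKO, against 2.49% of all tested positions, and 6 were higher, against 0.771%. The 12 were 1132, 1142, 1338, 1339, 1348, 1508, 1510, 1511, 1564, 1634, 1855 and 2084, and 5 of them were also called with the block. The difference at 1339 was -0.94 ± 0.107 (log2, SE, edgeR, adjusted p = 0.00208) and at 1634 it was -0.74 ± 0.110 (adjusted p = 0.00744). The 6 that were higher were 1350, 1351, 1353, 1596, 1692 and 1768, of which 1596 is a called site and had a difference of 0.46 ± 0.105 (adjusted p = 0.0440). In the CMC libraries of the same animals 16 of the 18 could be tested, and 14 of these had the same sign as in mock. Only 1 passed, 1855, with -0.99 on the log2 scale (edgeR, adjusted p = 0.0170). At 1855 the mock values were 2.26, 2.90, 3.01 and 2.78% in control and 2.00, 2.12, 1.78 and 1.73% in Rnmt cKO, and CMC termination 2.45, 2.80, 3.35 and 2.64% and 2.59, 1.42, 1.53 and 1.48%. Rnmt cKO was lower in both treatments except for its CMC library 1.

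CMC termination by genotype passed at 0 of the 580 tested positions and at 0% of all rRNA (edgeR), with 74 of the 580 at an unadjusted p under 0.05. That is 12.8%, against 15.0% over all rRNA. DESeq2 called 13 of the 580, or 2.24% against 2.81% of all, 9 of them higher in Rnmt cKO. None of these 13 was a called site. The smallest p was at the stop 1351, with 4.84, 4.81, 4.41 and 4.69% in control and 6.07, 6.62, 6.21 and 6.10% in Rnmt cKO. Its mock values were 4.41, 3.98, 3.48 and 4.08% and 4.91, 5.25, 6.78 and 5.89%, so Rnmt cKO was higher with no overlap in both treatments. The log2 differences were 0.42 ± 0.083 with CMC and 0.52 ± 0.142 in mock (edgeR, adjusted p = 0.0684 and 0.653). At 1767 the CMC values were 7.67, 8.58, 7.34 and 9.04% and 11.8, 10.2, 12.2 and 11.1%, again without overlap, a log2 difference of 0.47 ± 0.097 (adjusted p = 0.0700). The third was 1907, lower in Rnmt cKO, with 1.50 ± 0.024% in control and 1.12 ± 0.147% in Rnmt cKO.

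Genotypes did not overlap in CMC termination at 24 positions where Rnmt cKO was higher (4.14%, against 4.65% of all tested positions) and at 19 where it was lower (3.28%, against 3.29%). For mock termination the numbers were 26 higher (4.48%, against 3.86%) and 10 lower (1.72%, against 1.51%). These shares were near those of all rRNA.

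The remaining tall mock stops were 1238, 1257, 1767, 1848, 1874 and 2040. Their mock means were 12.1 ± 0.875% in control and 16.2 ± 4.49% in Rnmt cKO at 1238, where Rnmt cKO 3 had 22.8%, and 11.1 ± 1.69% and 13.5 ± 2.51% at 1257. It was 9.17 ± 1.67% and 13.3 ± 2.21% at 1767, with 7.21, 11.0, 8.47 and 10.0% in control and 11.3, 11.8, 16.1 and 13.9% in Rnmt cKO. At 1848, 1874 and 2040 it was 9.40, 8.62 and 8.50% in control and 10.8, 11.0 and 9.97% in Rnmt cKO. Each of these 6 means was higher in Rnmt cKO, and no difference passed the test (edgeR, lowest adjusted p = 0.653). Of the 10 tallest, 1339 and 1634 went the other way. Their mock means were 20.5% and 17.1% in control and 11.3% and 12.3% in Rnmt cKO. CMC lowered 3 of the 10 tallest mock stops, 1136, 1257 and 1874, by 0.26, 0.27 and 0.34 on the log2 scale, and raised none of the 10. Lower positions were 9.2% of those tested in the stretch and 10.2% of those of all rRNA. The 10 were picked for high mock termination, which is also the base of the CMC effect. No conclusion is therefore drawn from this count.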

How the data were processed

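Per the labels and the paper's methods, the authors took a random barcode of 10 nucleotides off single-end reads of 75 cycles, trimmed adapters, mapped what was left to custom rRNA sequences with bowtie2, collapsed PCR duplicates and dropped secondary alignments and those with a MAPQ under 20. The deposited values are counts of read starts per nucleotide, not normalised. The submitters' processing notes also name STAR 2.5.2b and mm10, with no role given.

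Counts held no coverage, so the read starts in a window of 65 nucleotides (the cycles less the barcode) stood in for it. This makes % termination a lower bound. The CMC effect and its interaction with genotype (animal as a block), and CMC and mock termination by genotype, were tested with edgeR 4.0.16 (glmQLFit and glmQLFTest, log window coverage as offset) over positions of all rRNA with a mean termination of at least 1%, without the first nucleotide of each rRNA. PSU scores were tested with limma 3.58.1 over all called sites. All tests were 2-sided with Benjamini-Hochberg adjustment over all rRNA and a threshold of 0.05. Scripts were tested on simulated data. Groups and replicate numbers came from the sample titles. Each number was taken as 1 animal, which the labels do not spell out, so p-values measure the spread between these samples. Positions named were the called sites, the 10 tallest mock stops, the 10 largest CMC effects, the 3 smallest p-values and every call of each genotype comparison, and the positions at each threshold; others were named after their values were seen. The stretch and all lists were chosen with earlier results of these data known.

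Same-numbered animals of the 2 genotypes are different mice, yet their mock libraries deviated together (r = 0.66, 0.42, 0.17 and 0.38 over log2 termination of 3985 positions), which was taken as pairing. Over the 581 positions of the stretch r was lower, at 0.59, 0.37, 0.13 and 0.21. Of the 4 controls, 3 correlated best with their own number over all rRNA and 2 in the stretch. For CMC termination r was -0.33 to -0.01, and for the PSU score 0.08 to 0.57. All 24 pairs of libraries within a group differed by more than sampling noise (chi-square per degree of freedom 1.35 to 26.8). R 4.3.3, DESeq2 1.42.0, Python 3.11.15, scipy 1.17.1 and matplotlib 3.10.9 were used.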

Additional observations from a re-analysis of the deposited data

Results flagged for a closer look

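Among 82 groups of 4 libraries or animals examined for a value far from the rest (Dixon's criterion at the 95% level), 7 had one. Chance gives about 1 in 20, or 4.1, where groups are independent. These groups share libraries, so no conclusion is drawn from the 2 counts. Of the 7, 5 were in animals numbered 1. Mock termination at the stop 1339 was 36.6% in control 1, against 14.2 to 15.6% in the other controls, and 21.6% in Rnmt cKO 1, against 7.33 to 8.78%. At 1634 it was 21.9% in Rnmt cKO 1, against 8.45 to 9.68%. At the called stops 1548 and 1666 control 1 had 4.12% and 2.26% in mock, against 2.07 to 2.31% and 1.04 to 1.14%. Rnmt cKO 3 had 17.2% in mock at 1257, against 11.9 to 12.5%. With CMC, control 3 had 7.37% at 1498, against 6.48 to 6.56%. The stop 1142 was not among the groups examined. Control 1 had 24.6% in mock there, against 3.90 to 4.94% in the other controls. The cause was not tested.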

How the results depend on the processing

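Of the values recomputed under other settings, the 9 strongest CMC effects kept their sign and passed the test in every fit, between 1.66 and 3.22 on the log2 scale. The 7 called sites were called again in at least 1 genotype in each fit that left out 1 animal and with both animals numbered 1 left out. In both genotypes 6 were called without control 2, 3 or 4, without Rnmt cKO 1, with both animals numbered 1 left out and with each smaller window. With a minimum of 5% CMC termination 5 of them were left, with a score of at least 4 there were 6, and with a minimum of 2% there were 9. Positions that changed with CMC rose from 118 to 208 with a window of 30 nucleotides, where 906 positions were tested in place of 587, and ran from 84 (without control 4) to 159 (without control 1) across fits that left out 1 animal. The alternative with both animals numbered 1 left out was chosen after seeing the data. CMC termination by genotype passed at 13 positions by DESeq2, at 1 (1855) with both animals numbered 1 left out, and at 0 to 1 across fits that each left out 1 animal (1951 without control 1, 1855 without Rnmt cKO 1). Mock termination by genotype passed at 2 positions by DESeq2, 6 with the replicate block, 18 with both animals numbered 1 left out and 10 with both changes. No share over all rRNA is given for the 10, nor for the CMC calls with animals left out. No conclusion is therefore drawn from those counts. At 1339 the mock difference passed with the replicate block (-0.89), with animals 1 left out (-0.94) and with both (-0.94), and at 1634 with animals 1 left out (-0.74) and with both (-0.74). The replicate block changed no other count of calls. The genotype difference in PSU score ran from -1.59 to 0.022 at nucleotide 1396 and from -0.17 to 1.07 at nucleotide 1665 across fits that left out 1 animal, with the turned sign without control 1 at both, and it was -0.18 at 1665 without both animals numbered 1. The share of read starts in the stretch, Rnmt cKO less control in CMC libraries, was -0.15 percentage points of 28S and 0.41 of all rRNA, and -0.37 to 0.0034 across fits that left out 1 animal. The cause of these changes was not tested. Calls restricted to uridines were not run, since the bases were not read here. Mock stops of 23 to 539 read starts limit the scores.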
